A study of Mus musculus with 19 samples.

Results

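Mcm8 and 8 other genes of homologous recombination repair were followed through heart RNA of Mcm8 knockout and wild-type mice, with and without a vasculitis-inducing treatment. The set was chosen by name and holds Mcm8, Mcm9, Brca1, Palb2, Brca2, Rad51c, Fanca, Fancd2 and Blm, which are 9 of the 25239 genes in the count table. A gene was tested only if its counts were high enough (a filter described below); 8 of the 9 genes passed among 14301 tested genes, and Fancd2 did not. The 4 groups were knockout hearts after LCWE (labelled Mcm8 knockout, n = 5), wild-type hearts after LCWE (n = 6), knockout hearts after PBS (n = 3) and wild-type hearts after PBS (n = 5). LCWE is a cell wall extract of Lactobacillus casei, used to bring on a Kawasaki disease-like vasculitis in mice, and PBS is the saline control. The labels give no strain, age, sex, dose or time, no deleted exons for the knockout allele, and do not say that each library is a separate animal, so p-values measure only the spread between these samples.

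Homologous recombination copies an intact sister sequence to repair a broken chromosome, and is used mainly by cells that replicate their DNA. MCM8 and MCM9 form a helicase that takes part in this repair. BRCA1 and PALB2 bring BRCA2 to the break, the Fanconi proteins act on crosslinked DNA, and the BLM helicase dissolves the joined intermediates. Adult heart muscle cells rarely divide, and endothelial, stromal and immune cells are the main dividing cells there.

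The libraries held between 11853233 and 16145911 counts, with 16247 to 17255 genes detected in each. Levels are given as CPM (a gene's counts relative to library size), scaled between libraries with TMM factors. Bulk hearts hold many cell types, and fewer cells of a type and less RNA per cell cannot be told apart. All 8 cardiomyocyte markers were detected in every group. In the summed level of 25 proliferation genes, knockout PBS replicates 1 and 3 were the lowest of all libraries (24.0 and 28.8 CPM). Knockout PBS replicate 2 (68.7 CPM) stood apart from them. Values without replicate 2 are given beside the results it moves most, and their knockout PBS group holds only the 2 libraries with the lowest sums. The labels carry sample numbers of unknown meaning, and Y-linked genes were present in knockout LCWE replicates 1, 3 and 5, wild-type LCWE replicate 1 and knockout PBS replicate 1.

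Mcm8 lies on chromosome 2, 132816141 to 132844197 in GRCm38, head to head with Trmt6. The stretch between their starts is shown because both genes begin at its ends. Capitals mark words of the ETS core (CCGGAAG) and the CCAAT box on either strand, and the ETS words overlap. Of 27025 genes with a promoter window, 9.93% held the ETS core and 41.1% the CCAAT word, and of the 8 genes of the set that have a window, 4 and 6 did. The sequence is RefSeq's (GRCm38.p6), on the strand of Mcm8, chr2:132816056-132816140.
Mcm8-Trmt6: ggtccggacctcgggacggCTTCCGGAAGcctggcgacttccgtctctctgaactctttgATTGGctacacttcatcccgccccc

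The other genes lie on chromosome 10 (Mcm9, 53536315 to 53630439), chromosome 11 (Brca1, 101488764 to 101551955, and Rad51c, 87376645 to 87404954), chromosome 7 (Palb2, 122107262 to 122132985, and Blm, 80454733 to 80535119), chromosome 5 (Brca2, 150522630 to 150570329), chromosome 8 (Fanca, 123268300 to 123318576) and chromosome 6 (Fancd2, 113531682 to 113597017). Windows from 250 bases before to 50 after each annotated start were found for 8 of the 9 genes. They were also searched for 4 words of the E2F site (TTTCCCGC, TTTCGCGC, TTTGCCGC and TTTGGCGC, both strands), since E2F factors drive genes of DNA replication. Of 27025 genes, 2.6% held such a word, and 3 of the 8 genes did, namely Mcm8, Brca2 and Rad51c. The words were chosen with these genes in view, and a match is a description of the sequence only. Rad51c holds one such word in each of its annotated start windows. The 30 bases around each word are given on the gene's strand with the word in capitals, at chr2:132816161-132816190 (+), chr5:150522442-150522471 (+), chr11:87404941-87404970 (-) and chr11:87404477-87404506 (-).
Mcm8: gcagaagcgcgtcatagacGCGCCAAAaaa
Brca2: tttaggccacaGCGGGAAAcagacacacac
Rad51c: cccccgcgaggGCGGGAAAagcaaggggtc
Rad51c, other start: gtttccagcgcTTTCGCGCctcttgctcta

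Mcm8 was lower in knockout hearts under both treatments, which checks the genotype labels. In knockout LCWE hearts the 5 libraries held 0.155, 0.13, 0.749, 0.339 and 0.586 CPM of Mcm8, from 2 to 10 counts each. In wild-type LCWE hearts Mcm8 ran from 2.60 to 5.19 CPM with a median of 4.23 CPM. The 3 knockout PBS libraries held 0.91, 0.617 and 0.753 CPM, against 2.84, 3.43, 3.42, 4.54 and 4.08 CPM in wild-type PBS. Every knockout library lay below every wild-type library, so the groups did not overlap. No knockout library was at 0: the lowest, with 2 counts, has a 95% exact Poisson interval of 0.242 to 7.22 counts, which covers counting error only. Knockout levels averaged 9.56% of wild type under LCWE and 20.8% under PBS.

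Mcm8 fell in knockout hearts under LCWE (log2 fold change -3.36 ± 0.34, edgeR adjusted p = 5.12e-05) and under PBS (-2.26 ± 0.39, edgeR adjusted p = 0.0316). Errors of log2 fold changes and differences are standard errors here and below. Averaged over treatments the change was -2.81 ± 0.26 (edgeR adjusted p = 1.32e-05). It was the 1 gene called of the 8 tested in each comparison, beside 0.00699% of all tested genes under LCWE and 0.601% under PBS, and 0.014% averaged. The count of all genes called under PBS moves with single libraries, from 86 to 2606 without knockout PBS replicate 2 and to 0 without replicate 1 or 3. By exact permutation of the libraries (two-sided, log2(CPM + 1) values), p was 0.00216 under LCWE over 462 splits and 0.0179 under PBS over 56 splits, each the smallest p its design allows. Groups that do not overlap, with the knockout lower, were seen in 0.364% of all tested genes under LCWE and 3.62% under PBS. The PBS call was lost with limma-voom (adjusted p = 0.0753), with only the groups compared in the fit (edgeR adjusted p = 0.0778), with the Y-linked level as a covariate (edgeR adjusted p = 0.0704), and without any 1 wild-type PBS library, knockout PBS replicate 1 or 3, or wild-type LCWE replicate 5 (edgeR adjusted p 0.0534 to 0.166). Among samples numbered 100 to under 200, with fewer libraries, the LCWE change was -3.24 and not called (edgeR adjusted p = 0.182).

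Trmt6, a transfer RNA methyltransferase subunit, starts 86 bases upstream of Mcm8, and Crls1, the cardiolipin synthase gene, follows it. Trmt6 had 9.82, 9.09, 9.07, 9.55 and 9.70 CPM in knockout LCWE hearts, against 5.65 to 9.52 CPM in wild-type LCWE hearts. Under PBS it had 12.0, 8.57 and 9.72 CPM in knockout hearts and 8.27, 8.28, 8.29, 10.2 and 7.79 CPM in wild-type hearts, and the ranges of each pair overlap. The differences were 0.18 ± 0.13 under LCWE and 0.24 ± 0.16 under PBS. Crls1 differed by -0.13 ± 0.15 under LCWE and -0.45 ± 0.19 under PBS, and neither gene was called (lowest edgeR adjusted p = 0.191). Of 33 tested genes within 2 Mb of Mcm8, 0 were called under LCWE or PBS, beside 0.00699% and 0.601% of all tested genes. With so few genes called anywhere, the 0 cannot show that the flank is unaffected. An unadjusted edgeR p under 0.05 was seen for 8 of the 33 under PBS, beside 19.7% of all tested genes. It was seen for 2 under LCWE, beside 5.55%, and for 10 averaged over treatments, beside 2956 of all 14301.

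**Figure D1:**
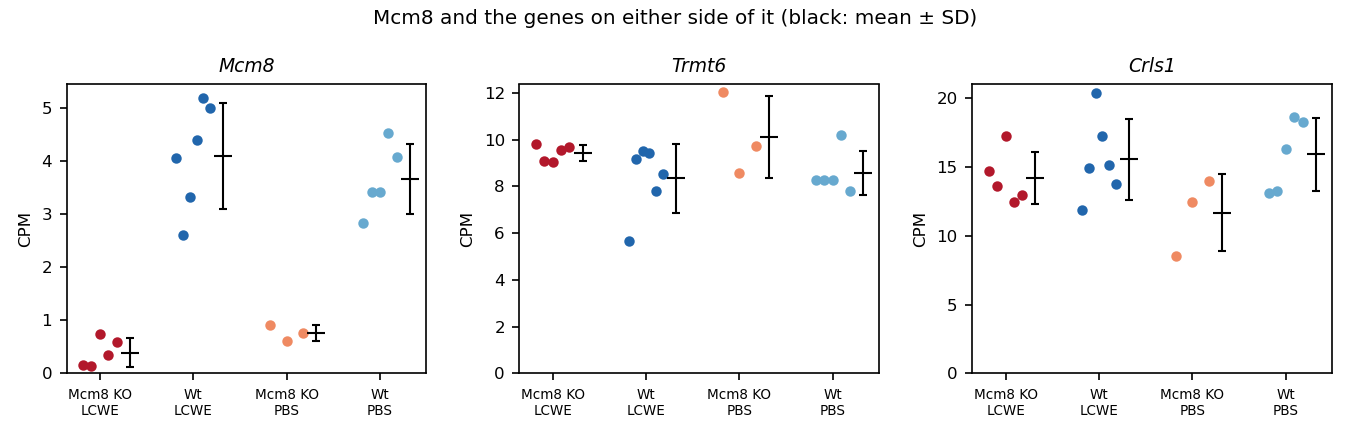
CPM of Mcm8, Trmt6 and Crls1 in each library, by group (points: libraries, black: mean ± SD). Mcm8 lies under 1 CPM in every knockout library and above 2.5 CPM in every wild-type one, while Trmt6 and Crls1 overlap between genotypes.

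Mcm9, the helicase partner, had 6.88, 4.41, 5.62, 7.18 and 7.03 CPM in knockout LCWE hearts, against 4.58 to 6.22 CPM (median 5.79) in wild-type LCWE hearts. Under PBS it had 5.60, 4.53 and 4.29 CPM in knockout hearts, against 5.68, 5.73, 5.85, 4.94 and 6.46 CPM in wild-type hearts. The genotypes overlapped under both treatments. Mcm9 differed by 0.14 ± 0.14 under LCWE (95% interval -0.16 to 0.44) and by -0.25 ± 0.18 under PBS (-0.62 to 0.12), and was not called. Asf1a, a histone chaperone gene, overlaps Mcm9 on the other strand, and the strand setting of the counting is not given in the sources used here. After LCWE, against PBS, Mcm9 differed by 0.37 ± 0.18 in knockout hearts and -0.02 ± 0.15 in wild-type hearts, without a call.

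**Figure D2:**
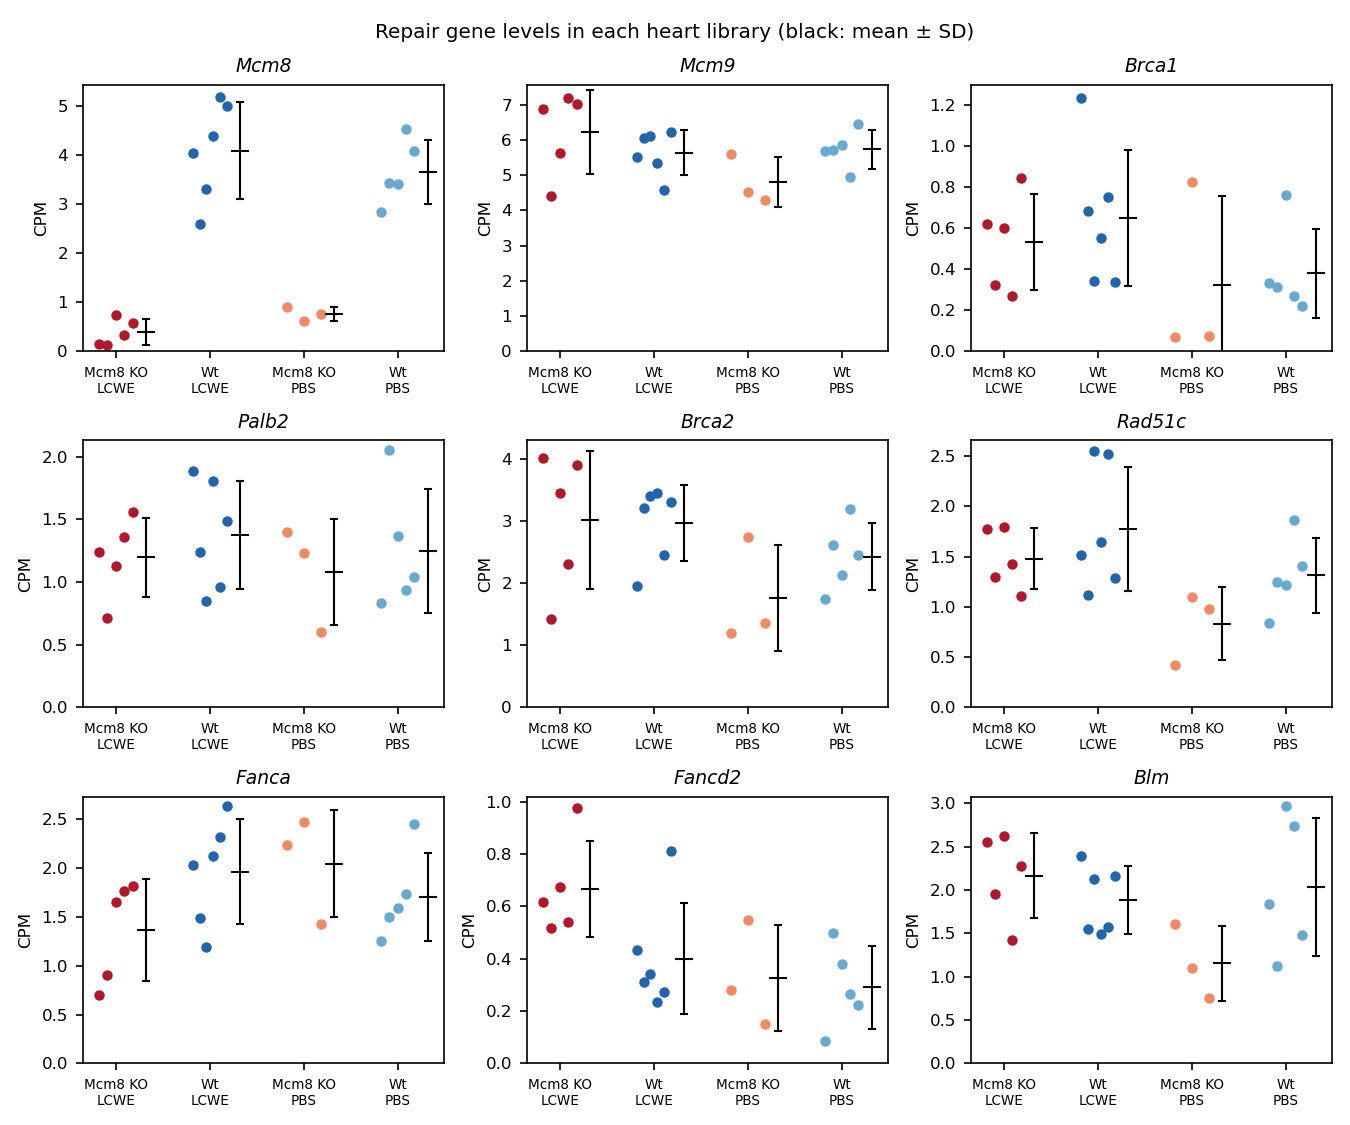
CPM of the 9 genes in each library, by group (points: libraries, black: mean ± SD, drawn from 0 up). Only Mcm8 separates the genotypes, and Brca1 is at its lowest in 2 of the 3 knockout PBS libraries.

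The BRCA loading genes did not differ by genotype beyond the spread of the libraries. Brca1, whose protein recruits repair factors to breaks, had 4 to 13 counts (0.618, 0.325, 0.599, 0.271 and 0.846 CPM) in knockout LCWE hearts, against 0.338 to 1.23 CPM (median 0.616) in wild-type LCWE hearts. It had 1, 12 and 1 counts (0.07, 0.823 and 0.0753 CPM) in knockout PBS hearts, and 0.334, 0.311, 0.76, 0.267 and 0.223 CPM in wild-type PBS hearts. Brca1 thus differed most between the knockout PBS replicates, and all 4 groups overlapped. The genotype difference was -0.29 ± 0.52 under LCWE and -0.20 ± 0.70 under PBS, and its 95% intervals reach from -1.65 to 1.25 under PBS. Without knockout PBS replicate 2 the PBS value was -2.24 (edgeR adjusted p = 0.0719). Over 29 alternatives the PBS value ran from -2.43 to 0.27.

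Palb2, the bridge between BRCA1 and BRCA2, had 1.24, 0.714, 1.12, 1.36 and 1.56 CPM in knockout LCWE hearts, against 0.85 to 1.88 CPM (median 1.36) in wild-type LCWE hearts. The PBS libraries held 1.40, 1.23 and 0.603 CPM in knockout hearts, against 0.835, 2.06, 1.37, 0.934 and 1.04 CPM in wild-type hearts. The groups overlapped, with differences of -0.19 ± 0.31 under LCWE and -0.21 ± 0.38 under PBS. Brca2, whose protein is brought to breaks by PALB2, had 4.02, 1.43, 3.45, 2.30 and 3.90 CPM in knockout LCWE hearts, against 1.96 to 3.46 CPM (median 3.27) in wild-type LCWE hearts. Under PBS it had 1.19, 2.74 and 1.36 CPM in knockout hearts, against 1.75, 2.62, 2.13, 3.20 and 2.45 CPM in wild-type hearts. Knockout PBS replicates 1 and 3 lay below all wild-type PBS libraries, and replicate 2 lay among them. The Brca2 differences were 0.02 ± 0.27 under LCWE and -0.46 ± 0.34 under PBS, neither called. Without knockout PBS replicate 2 the PBS value was -0.93 ± 0.38 (edgeR adjusted p = 0.0921). Over 31 alternatives the PBS value ran from -1.04 to -0.25.

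Rad51c, whose protein acts in recombination repair, had 1.78, 1.30, 1.80, 1.42 and 1.11 CPM in knockout LCWE hearts, against 1.11 to 2.55 CPM (median 1.59) in wild-type LCWE hearts. It had 0.42, 1.10 and 0.979 CPM in knockout PBS hearts, against 0.835, 1.25, 1.22, 1.87 and 1.41 CPM in wild-type PBS hearts. The genotype groups overlapped, and the differences were -0.26 ± 0.29 under LCWE and -0.66 ± 0.38 under PBS, without a call. Every knockout LCWE library lay above every knockout PBS library, at 1.11 CPM for the lowest and 1.10 CPM for the highest, and 4.91% of all tested genes did so. The LCWE difference in knockout hearts was 0.82 ± 0.38 (edgeR adjusted p = 0.195), with a two-sided exact permutation p = 0.0179, the smallest this design allows, not adjusted for the 36 such tests made.

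Of the Fanconi genes, Fanca, a core complex subunit, had 0.696, 0.909, 1.65, 1.76 and 1.82 CPM in knockout LCWE hearts, against 1.19 to 2.64 CPM (median 2.08) in wild-type LCWE hearts. Under PBS it had 2.24, 2.47 and 1.43 CPM in knockout hearts and 1.25, 1.49, 1.60, 1.73 and 2.45 CPM in wild-type hearts. The ranges overlapped under both treatments, with differences of -0.52 ± 0.29 under LCWE and 0.26 ± 0.34 under PBS. Fanca overlaps Zfp276 on the other strand. Fancd2, the clamp that is ubiquitinated at crosslinks, had 0.618, 0.519, 0.674, 0.542 and 0.976 CPM (8 to 15 counts) in knockout LCWE hearts, against 0.236 to 0.811 CPM (median 0.325) in wild-type LCWE hearts. It had 0.28, 0.549 and 0.151 CPM in knockout PBS hearts, against 0.0835, 0.498, 0.38, 0.267 and 0.223 CPM in wild-type PBS hearts. The knockout LCWE libraries lay above 5 of the 6 wild-type LCWE libraries. Fancd2 failed the count filter: without a filter its LCWE genotype difference was 0.72 ± 0.44 (edgeR adjusted p = 0.880).

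Blm, the dissolution helicase, had 2.55, 1.95, 2.62, 1.42 and 2.28 CPM in knockout LCWE hearts, against 1.49 to 2.39 CPM (median 1.85) in wild-type LCWE hearts. It had 1.61, 1.10 and 0.753 CPM in knockout PBS hearts and 1.84, 1.12, 2.96, 2.74 and 1.48 CPM in wild-type PBS hearts. Blm differed between genotypes by 0.20 ± 0.27 under LCWE and -0.80 ± 0.35 under PBS (95% interval -1.52 to -0.08, edgeR adjusted p = 0.205). The genotype ranges overlapped under both treatments and neither difference was called. The genotype by LCWE interaction of Blm had a 95% interval of 0.09 to 1.92 on the log2 scale (edgeR adjusted p = 0.598), and that of Mcm8 was -1.10 ± 0.50 (edgeR adjusted p = 0.598). Of all tested genes 0% were called in the interaction by edgeR and 8.01% were at an unadjusted p under 0.05 (DESeq2 called 5 and limma-voom 0). This count rests on knockout PBS replicate 2, without which edgeR called 481 genes, with 0 of the 9 genes of the set among them.

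**Figure D3:**
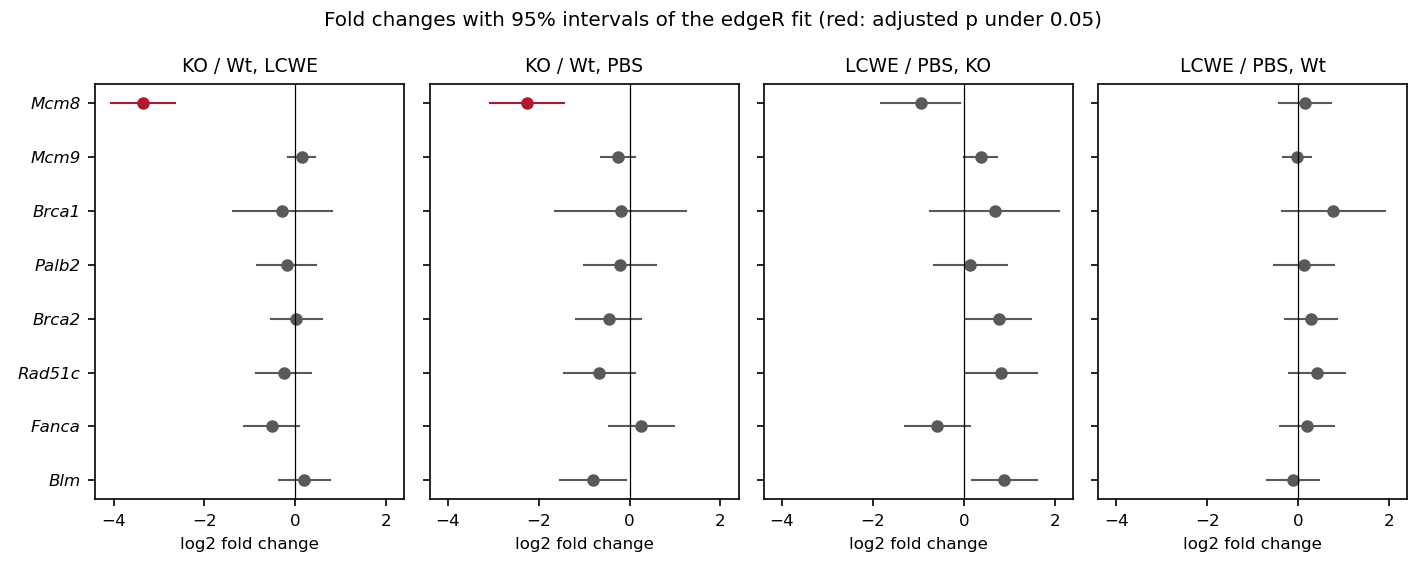
Log2 fold change of the 8 tested genes with 95% intervals from the edgeR fit, for genotype under LCWE and PBS and for LCWE in each genotype (red: adjusted p under 0.05). Mcm8 is called in the genotype comparisons at -3.36 and -2.26, and no other gene is called in any of the 4 comparisons.

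LCWE against PBS gave 0 called genes among the 8 in either genotype by edgeR, DESeq2 and limma-voom. The knockout PBS and wild-type PBS libraries enter both the genotype and the LCWE comparisons, so these share samples. In knockout hearts 2.9% of all tested genes were called (415, against 2935 without knockout PBS replicate 2 and 1 without replicate 1), and in wild-type hearts 0% were, with 892 at an unadjusted p under 0.05 (DESeq2 called 1 and limma-voom 0). In knockout hearts 5 of the 8 were at an unadjusted p under 0.05, beside 23.4% of all tested genes: Mcm9, Brca2 (0.77 ± 0.34), Rad51c and Blm (0.90 ± 0.35) lay higher and Mcm8 lower (-0.94 ± 0.42). Their adjusted p ran from 0.128 to 0.213. In wild-type hearts 0 of the 8 were, beside 6.24% of all. The median of the 7 tested genes without Mcm8 was 0.68 in knockout hearts and 0.20 in wild-type hearts, against 0.01 over all tested genes in each. Without knockout PBS replicate 2, Brca1 (2.73, edgeR adjusted p = 0.0274) and Brca2 (1.24, edgeR adjusted p = 0.0286) were called in knockout hearts. Among samples numbered 100 to under 200 the Rad51c value was 1.92, but they hold 1 knockout PBS library, which was assumed to vary like the other groups.

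The low counts set what can be seen. Per kilobase of exon, the 11 wild-type libraries averaged 1.05 CPM for Mcm8, 0.623 for Mcm9, 0.357 for Rad51c, 0.222 for Blm, 0.211 for Fanca, 0.200 for Brca2, 0.179 for Palb2, 0.0617 for Brca1 and 0.0442 for Fancd2. Mcm8 exceeded Mcm9 in 11 of 11 libraries and Palb2 exceeded Brca1 in 11 of 11, while Blm, Fanca and Brca2 changed places between libraries (6 of 11 for each step). Over the libraries the range of every gene overlapped that of the next. The 9 levels sat between percentiles 15.8 and 42.8 of 18863 detected genes. Variance between replicates was 1.28 times the counting error for Fancd2 and 3.45 times for Brca2.

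Genes of dividing cells were set beside the repair genes. The proliferation list summed to 59.6 to 67.2 CPM in knockout LCWE hearts, 51.1 to 115 CPM in wild-type LCWE hearts, 24.0, 68.7 and 28.8 CPM in knockout PBS hearts and 45.3 to 58.2 CPM in wild-type PBS hearts. The marker gene Mki67 had 1.47, 5.21 and 0.301 CPM, and Top2a, which untangles replicated DNA, had 0.42, 3.70 and 0.377 CPM, in the 3 knockout PBS libraries. Without replicate 2, Top2a was called for genotype under PBS (-2.80, edgeR adjusted p = 0.0133) and for LCWE in knockout hearts (3.59, edgeR adjusted p = 0.00301). Top2a was also called for the interaction (edgeR adjusted p = 0.0361), and Mki67 for LCWE in knockout hearts (2.62, edgeR adjusted p = 0.0322). None of these was called with all libraries. Replicate 2 was set apart by its proliferation sum and held the highest Top2a and Mki67 of the 3, so these calls are not support. Far more of all tested genes were also called without it, at the counts given above. Knockout PBS replicates 1 and 3, which held the lowest sums, also held the lowest Brca1, at 1 count each, and their part in the results above was not tested. The 8 knockout libraries fell into these 2 and 6 others, so no correlation over all 8 is given, although the 9 computed over them are among the 18 relations used for adjustment. Within the 6, Pearson's r with the list on the log2(CPM + 1) scale was 0.34 for Brca1, 0.27 for Rad51c and 0.14 for Brca2. Over the 11 wild-type libraries, Brca1 had r = 0.79 (permutation p = 0.00471) and rho = 0.70 (permutation p = 0.0204, 0.367 adjusted over 18 relations). The adjusted permutation p of r was 0.0446. It depends on the small p of a knockout relation set aside above (Rad51c, permutation p = 0.00496), so no call is read from it. Without the 2 libraries farthest from the median (wild-type LCWE replicate 1 and PBS replicate 2) r was 0.52, so the relation rests in part on those samples. For Brca2 the wild-type r was -0.38.

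**Figure D4:**
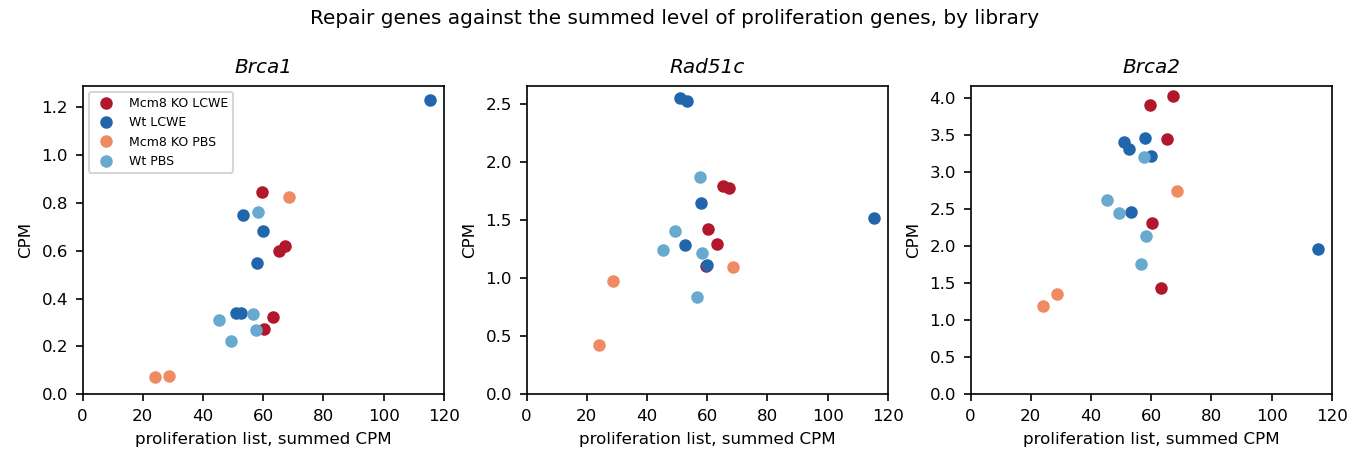
CPM of Brca1, Rad51c and Brca2 against the summed CPM of 25 proliferation genes, 1 point per library, coloured by group. Knockout PBS replicates 1 and 3 lie apart at 24.0 and 28.8 CPM, and wild-type LCWE replicate 1 lies at 115 CPM.

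The wider repair system showed few calls. Of 67 other homologous recombination genes (strand exchange, end resection, BRCA partners, Fanconi, junction processing, RPA and checkpoint), 59 were tested, and 0 were called for genotype under LCWE (5 at an unadjusted p under 0.05, beside 5.55% of all tested genes, and 0 by DESeq2 and limma-voom) or under PBS (9 at an unadjusted p under 0.05, beside 19.7%, and 0 by both). Averaged over treatments edgeR called 0 of the 59, beside 0.014% of all tested genes, and limma-voom called 0. DESeq2 called 2 of the 59, beside 672 of all genes. The median difference of the 59 genes was -0.02 under LCWE and -0.08 under PBS, beside 0.00 over all tested genes. With LCWE, 1 of the 59 rose in knockout hearts, beside 2.9% of all tested genes called, and 16 were at an unadjusted p under 0.05, beside 23.4% of all: Fancl, the ubiquitin ligase of the Fanconi complex, had 6.49, 6.04, 5.77, 6.17 and 7.29 CPM in knockout LCWE hearts, against 3.71, 4.53 and 3.92 CPM in knockout PBS hearts (0.65 ± 0.16, edgeR adjusted p = 0.0406). Wild-type PBS libraries held 5.73 to 6.08 CPM and wild-type LCWE libraries 5.81 to 8.93 CPM, so the knockout PBS libraries were the lowest of all. The Fancl genotype difference under PBS was -0.54 ± 0.16 (edgeR adjusted p = 0.0858), and it was called without knockout PBS replicate 2 (-0.63, edgeR adjusted p = 0.0233). In wild-type hearts 0 of the 59 were called (4 at an unadjusted p under 0.05, beside 6.24% of all, and 0 by DESeq2 and limma-voom). DESeq2 called 3 of the 59 in knockout hearts and limma-voom 0. Of 11 end joining genes, the other route of break repair, 0 were called in any of the 4 comparisons by edgeR, DESeq2 or limma-voom. Before adjustment, 1 was at an edgeR p under 0.05 for genotype under LCWE and 1 under PBS, beside 5.55% and 19.7% of all tested genes. For LCWE, 1 was in knockout hearts and 0 in wild-type hearts, beside 23.4% and 6.24%. Of the leave-one-out fits, 10 of 19 kept the Fancl call, with folds between 0.59 and 0.73 over 31 alternatives. It was lost without wild-type PBS replicates 1 to 4, knockout PBS replicates 1 or 3, or knockout LCWE replicates 1, 3 or 5, and also with no filter, with limma-voom, with only the groups compared, with the number range as a covariate and in the single number range (adjusted p up to 0.275).

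Of 17 DNA replication genes, Mcm3, a subunit of the replicative helicase, rose with LCWE in knockout hearts, to 12.8, 13.8, 12.9, 10.6 and 12.9 CPM in knockout LCWE hearts, against 7.91, 7.89 and 6.93 CPM in knockout PBS hearts (0.74 ± 0.19, edgeR adjusted p = 0.0438). Every knockout LCWE library lay above every knockout PBS library, as in 4.91% of all tested genes. Mcm3 was the 1 gene of the 17 that edgeR called in knockout hearts, beside 2.9% of all tested genes. Mcm6, its partner subunit, had 16.1, 15.4, 15.2, 11.9 and 14.1 CPM in knockout LCWE and 11.8 to 19.1 CPM in wild-type LCWE hearts, against 12.2, 11.4 and 9.04 CPM in knockout PBS and 10.5 to 12.6 CPM in wild-type PBS hearts, and the treatments overlapped. Averaged over genotypes, where 2.95% of all tested genes were called, Mcm3 (0.50 ± 0.12, edgeR adjusted p = 0.0397) and Mcm6 (0.39 ± 0.10, edgeR adjusted p = 0.0466) rose. Of 22 tested proliferation genes 0 were called by edgeR (1 by DESeq2 and 0 by limma-voom averaged over genotypes), 8 were at an unadjusted p under 0.05 averaged over genotypes (25.5% of all tested genes were), and all 22 lay above 0 with a median of 0.61. The median sum of the list was 63.3 CPM in knockout LCWE and 28.8 CPM in knockout PBS hearts. In wild-type hearts it was 55.6 CPM after LCWE and 56.8 CPM after PBS, so the wild-type medians showed no rise. Of 14 tested p53 targets edgeR, DESeq2 and limma-voom each called 1 with LCWE averaged over genotypes. Before adjustment 4 were at an edgeR p under 0.05, beside 25.5% of all tested genes. For genotype, 2 were under PBS, beside 19.7%, and 0 under LCWE, beside 5.55%. There edgeR and limma-voom called 0, and DESeq2 called 1 as higher in knockout PBS hearts. For LCWE in knockout hearts DESeq2 called 2 as lower, and edgeR and limma-voom 0. DESeq2 counts over all genes are given below. The median sum of the p53 list was 861 CPM in knockout LCWE, 888 in wild-type LCWE, 954 in knockout PBS and 835 in wild-type PBS hearts. The gene that edgeR called averaged over genotypes was Cdkn1a, the p53 target that halts the cell cycle. It fell by 1.16 on the log2 scale (SE 0.26, edgeR adjusted p = 0.0370). It averaged 70.6 ± 30.6 CPM in knockout LCWE, 62.7 ± 20.3 in wild-type LCWE, 187 ± 103 in knockout PBS and 118 ± 37.9 in wild-type PBS hearts (SD). Leaving out 1 library at a time, the Mcm3 call in knockout hearts held in 8 of 19 fits and its averaged call in 6, that of Mcm6 in 4 and that of Cdkn1a in 9. The Mcm3 call in knockout hearts was also lost with no filter, limma-voom, only the groups compared and the number range as a covariate. Averaged, that of Mcm3 was lost in 2, that of Mcm6 in 5 and that of Cdkn1a in 1 of 11 other settings, and limma-voom called 0 of the 17 replication genes. The averaged calls of all 3 genes were lost without knockout PBS replicate 1 or 3 or any 1 wild-type PBS library, and kept without knockout PBS replicate 2 (edgeR adjusted p up to 0.147). The macrophage receptor gene Mrc1 rose too (1.36 ± 0.25 in knockout hearts, edgeR adjusted p = 0.0182): the 9 macrophage markers summed to 309 to 833 CPM in knockout LCWE, 253 to 535 in wild-type LCWE, 125 to 329 in knockout PBS and 211 to 284 in wild-type PBS hearts, and their part was not tested.

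**Figure D5:**
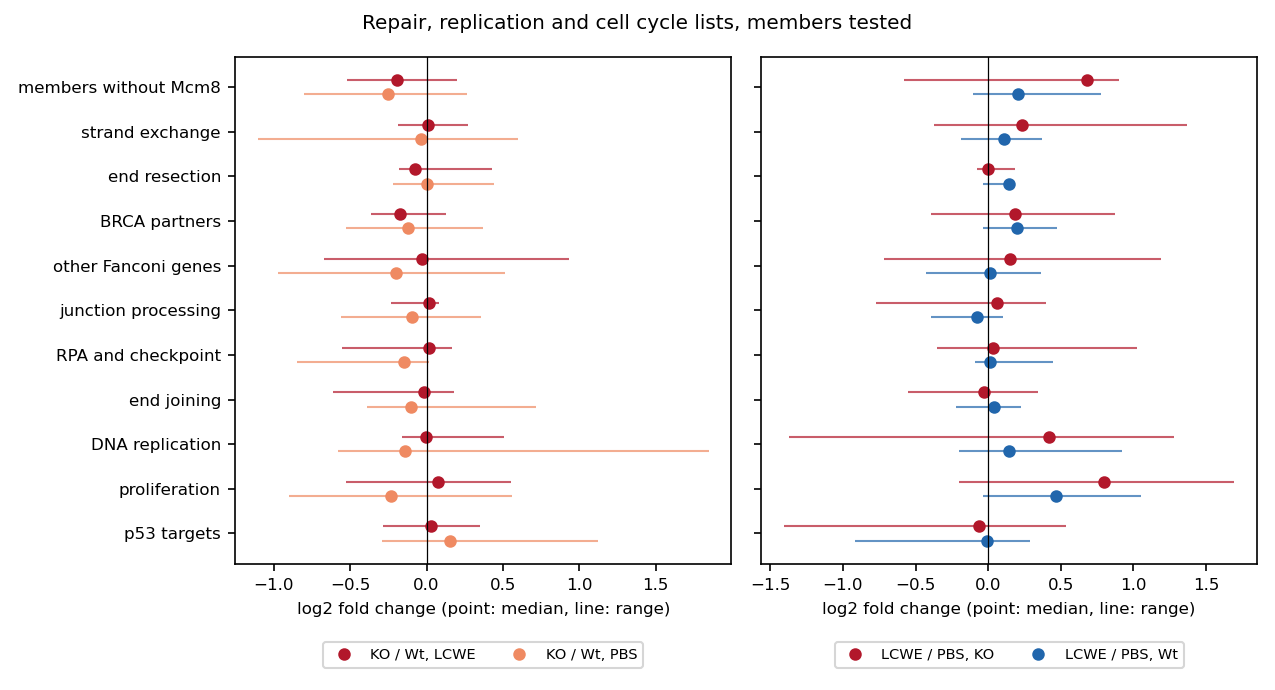
Median (point) and range (line) of log2 fold changes of the tested genes in each list, for genotype (left) and for LCWE (right). With LCWE in knockout hearts the medians of the repair genes without Mcm8 (0.68), DNA replication (0.42) and proliferation (0.80) lie above the 0.01 of all tested genes.

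Among genes with a mean of at least 1 CPM over all 19 libraries, the log2 CPM most like that of Mcm8 belonged to 5 genes. They were Uros (r = 0.76), Gfra4 (0.75), 9030612E09Rik (0.74), Rdh14 (0.73) and Nfs1 (0.73). Gfra4 and Nfs1 lie on chromosome 2, as Mcm8 does. Within the 11 wild-type libraries, among the same genes, those most like Mcm8 were Tpp1 (0.94), B3galnt2 (0.92), Gm15743 (0.92), Get1 (0.91) and Dcaf11 (0.91). Fanca stood 125 of 13034 genes there (r = 0.82), and Mcm9 had r = -0.47. Gm15743 averaged only 0.569 CPM in wild-type libraries and passed the floor of 1 CPM through the knockout libraries (mean 1.71 CPM). These are descriptions over libraries that share depth and handling. Between the 9 genes over all 19 libraries, the highest r was 0.56, for Brca2 with Rad51c.

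The other head-to-head partners of these genes were not called for genotype. Nbr1 (opposite Brca1), Dctn5 (opposite Palb2) and Emc3 (opposite Fancd2) differed by 0.11 ± 0.11, 0.06 ± 0.11 and -0.06 ± 0.09 under PBS. Tex14, opposite Rad51c, was too low to test and had 30 counts in knockout PBS replicate 1, against 0 to 6 in the other 18 libraries.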

How the data were processed

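RNA of mouse hearts was amplified with a whole-transcriptome kit and sequenced, per the labels' protocols. The authors deposited whole-number counts per gene for 19 libraries; the tool STAR 2.7.8a and the build GRCm38 stand in the submitters' processing notes, and the strand setting of the counting is not given in the sources used here. Amplified reads without molecular identifiers are not independent molecules.

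Counts were fitted with edgeR 4.0.16 (R 4.3.3): filterByExpr (minimum count 10, minimum total 15), TMM factors, 1 robust quasi-likelihood fit over the 4 groups, and Benjamini-Hochberg adjustment over 14301 genes with a threshold of 0.05. CPM were computed on the TMM-scaled library size. Single genes were also tested by two-sided exact permutation of log2(CPM + 1) with SciPy 1.17.1. The fit was tested on simulated counts in which genes at 0.5 to 6 CPM were changed by a known fold. It recovered 23% of 2-fold changes for genotype under LCWE and 9% under PBS. For LCWE it recovered 3% in knockout and 24% in wild-type hearts. Of 4-fold changes it recovered 73%, 58%, 48% and 73% in the same order. Most 2-fold changes at these levels were thus missed in the simulation. It gave all groups the same mean apart from the changed genes, and no differences between libraries shared by many genes. Its rates therefore need not hold for these data. Alternatives were RLE factors, library totals, other filters, a fit that was not robust, DESeq2 1.42.0, limma-voom (limma 3.58.1), only the groups compared, sample-number range, 1 surrogate variable (sva 3.50.0) or the Y-linked level as a covariate, 1 range of sample numbers alone, and each library left out. Depth was 11853233 to 16145911 counts.

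Named genes are the 9 genes, divergent neighbours starting within 1 kb and the gene on the other side of Mcm8, and from each list up to 4 called genes by smallest p. The 5 genes most like Mcm8 by Pearson r were also named, and the levels of Mki67 and Top2a were added after their values were seen. Exon lengths are from GENCODE M21 and promoter windows from RefSeq. The members and lists were chosen with earlier results of these data known.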

Additional observations from a re-analysis of the deposited data

Results flagged for a closer look

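Among 27 groups of 4 to 10 libraries checked for a library far from the others, where chance gives about 1 in 20, 2 values stood out. Brca1 had 0.76 CPM in wild-type PBS replicate 3, while the other 4 libraries of that group held 0.223 to 0.334 CPM. Fancd2 had 0.811 CPM in wild-type LCWE replicate 6, while the other 5 libraries held 0.236 to 0.435 CPM.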

How the results depend on the processing

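No alternative turned round the sign of the Mcm8 genotype difference. Under PBS it was not called with limma-voom (-2.23), with only the groups compared (-2.27) or with the Y-linked level as a covariate (-2.37), and 0 genes of the set were then called (of 8 tested, or 7 with only the groups compared). Leaving out 1 library, it lay between -2.41 and -2.13, and the call was lost without any 1 wild-type PBS library, knockout PBS replicate 1 or 3, or wild-type LCWE replicate 5 (edgeR adjusted p 0.0534 to 0.166), so 0 to 1 gene of the set was called. Among samples numbered 100 to under 200 the LCWE difference was -3.24 and 0 of the 8 were called. LCWE against PBS then gave 1 in knockout hearts and 1 averaged over genotypes, with 1 knockout PBS library assumed to vary like the other groups. Leaving out 1 library, LCWE called 0 to 2 genes of the set in knockout hearts and averaged, with 2 of 9 tested without knockout PBS replicate 2. The cause was not tested. Over all genes, the 86 calls for genotype under PBS became 21 with library totals, 699 with DESeq2, 1 with limma-voom, 1 with only the groups compared, 524 with the number range, 0 with the Y-linked level and 3985 in the single number range with its lone knockout PBS library. Leaving out 1 library they lay between 0 (without wild-type PBS replicates 1, 2 or 3, knockout PBS replicates 1 or 3, or wild-type LCWE replicate 5) and 2606 (without knockout PBS replicate 2). The 415 LCWE calls in knockout hearts became 229 with library totals, 1260 with DESeq2, 113 with limma-voom, 0 with only the groups compared, 116 with the number range, 826 with the Y-linked level and 4001 in the single range, and lay between 1 (without knockout PBS replicate 1) and 2935 (without replicate 2) when 1 library was left out. The 422 averaged LCWE calls became 234 with no filter, 1351 with DESeq2, 144 with limma-voom, 51 with the number range, 930 with the Y-linked level and 4527 in the single range, and lay between 0 and 2847 for the same 2 libraries. The 2 averaged genotype calls became 672 with DESeq2, 260 with the number range, 11 with a surrogate variable, 3349 in the single range and 1 to 2397 when 1 library was left out. The 0 interaction calls became 5 with DESeq2, 2230 in the single range and 481 without knockout PBS replicate 2. No paired analysis was possible because the labels give no replicate numbers shared between groups. At these counts (1 to 17 for Brca1) differences under about the printed intervals were not detectable.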

Other observations

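Neutrophil markers summed to 4.95 to 92.0 CPM in knockout LCWE hearts, 3.65 to 49.8 CPM in wild-type LCWE hearts, 2.80 to 4.11 CPM in knockout PBS hearts and 2.20 to 6.61 CPM in wild-type PBS hearts. All 4 tested neutrophil genes of 6 lay above 0 with LCWE in both genotypes. Their median log2 difference was 3.98 in knockout hearts and 2.58 in wild-type hearts. The count filter ran over all groups together, so genes high only after LCWE could pass it through those libraries. That all 4 lay above 0 is therefore not read as support. In either genotype 0 were called by edgeR or limma-voom. By edgeR 2.9% of all tested genes were called in knockout hearts and 0% in wild-type hearts. DESeq2 called 3 of the 4 in knockout hearts. Averaged over genotypes edgeR called 3 of the 4 as higher with LCWE, beside 2.95% of all tested genes called. DESeq2 called 4 and limma-voom 0. Before adjustment 4 of them were at an edgeR p under 0.05 in knockout hearts, beside 23.4% of all tested genes. In wild-type hearts 3 were, beside 6.24%. The highest sums lay in knockout LCWE replicate 4 (92.0 CPM) and wild-type LCWE replicate 3 (49.8 CPM).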
